A study of Chlorella sorokiniana with 6 samples.

Results

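Transcripts of the proteasome of *Chlorella sorokiniana*, a unicellular green alga, were compared between normal and mixotrophic cultures. The members are the 64 transcripts, of 18310 in the count table, that the authors' Mercator annotation put in the proteasome category of the MapMan scheme, a hierarchy of functional categories. RNA was sequenced from 3 normal and 3 mixotrophic libraries. Both conditions started from one kind of pre-culture in Bold's Basal Medium. Normal cultures then grew for a further week at 10 µmol photons of light with no glucose (0%), and mixotrophic cultures at 100 µmol photons with 2% glucose, so light and glucose cannot be told apart. The labels give a different strain number to each library, from NIES-2168 to NIES-2170 in the normal and from NIES-2171 to NIES-2173 in the mixotrophic libraries, whereas the study's methods name NIES-2168 alone. The methods speak of independent triplicates, but no label ties a library to its own culture, so p-values measure the spread between these libraries. Libraries are named below by condition and replicate number, and values in a row are in the order of replicates 1, 2 and 3.

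The proteasome degrades proteins that carry chains of ubiquitin. Its core particle is a barrel in which the outer rings of alpha subunits control entry and the inner rings of beta subunits hold the proteolytic sites. The regulatory particle caps the barrel. A ring of RPT ATPases with the large subunits RPN1 and RPN2 forms most of the base, which unfolds substrates and threads them inward. Most other RPN subunits, though not RPN10 and RPN13, form the lid, in which RPN11 removes the ubiquitin chain. Most of these roles are known from yeast, mammals and *Arabidopsis*, and the subunit names used here come from the *Arabidopsis* match in the deposited annotation.

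The libraries held 2535461 to 4444858 counts. Normal 1 and mixotrophic 1 stood apart from the other libraries, as 946 transcripts were at least 2-fold lower in both of them than in every other library (CPM, counts scaled to the library total as defined in the methods, with 0.5 added). These transcripts held 0.0743% and 0.0858% of the counts of the replicate 1 libraries against 1.40% to 2.11% elsewhere. Summed levels of phenylpropanoid transcripts, a pathway of land plants, were 307, 1548 and 1259 CPM in the normal and 599.6, 1173 and 1403 CPM in the mixotrophic libraries, and those of flavonoid transcripts 43.9, 521 and 343 CPM (normal) and 51.4, 348 and 456 CPM (mixotrophic). Of these lists, 32 of 45 and 10 of 14 transcripts belonged to the low group, and 13 and 10 of the phenylpropanoid transcripts were at 0 in normal 1 and mixotrophic 1 against 3 in each other library. Among transcripts scored against both *Chlamydomonas* and *Arabidopsis*, those with the *Chlamydomonas* score at least as high held 69.3% to 70.9% of the counts in every library. The first fit took replicates 2 and 3 of each condition (4 libraries), which are the libraries of the study's own expression sheet, and a second took all 6 libraries. The common coefficient of variation was 4.64% over 4 libraries and 35.5% over 6.

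Of the 64 members, 12 had no count in any library, 6 were in the group low in replicate 1, 3 had counts but too few to be tested, and 43 were tested in both fits. Over 4 libraries, 29 of the 43 were upregulated and 5 downregulated in mixotrophic cultures (edgeR quasi-likelihood test, adjusted p under 0.05), beside 28.6% upregulated and 29% downregulated among the 12389 transcripts tested. The member shares were 67.4% and 11.6%. Their median log2 fold change (mixotrophic over normal) was 0.45, against -0.019 over all transcripts, and 37 of 43 were positive. The changes were small, between -0.65 and 1.07 with an SD of 0.42, where all transcripts had an SD of 1.02. Such a spread was not particular to the proteasome. Among lists compared below, autophagy transcripts had an SD of 0.375 and cytosolic ribosomal proteins 0.373, while ubiquitin ligases had 0.66. When a log2 fold change of 1 or more in size was also required, 3 members were called higher and 0 lower, where the background was 11.7% and 12%.

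Over 6 libraries, 21 of 43 members were upregulated and 0 were downregulated, where 13.3% and 15.2% of the 12318 transcripts tested were called. All 21 were also called over 4 libraries. At an unadjusted p under 0.05, 26 were higher and 1 was lower (19.3% and 21.7% of all transcripts), and DESeq2 called 24 higher and 0 lower (1819 and 2123 over all transcripts). The median was 0.49 against -0.042 over all transcripts, and 39 of 43 were positive. With the replicate number as a block, 11 members were called higher, and the 10 calls lost had adjusted p between 0.0517 and 0.0790. Without mixotrophic 1, 2 or 3, 6 members were called in each case, without normal 1 the calls were 28 higher and 5 lower, and without normal 2 or normal 3 they were 15 and 16 higher. Shares of all transcripts were not computed for the block or for fits without a library, so these counts have no background, here or below. The mixotrophic libraries lay wholly above the normal ones in 33 members and below them in 2 (24.1% and 24.5% of all transcripts over 6 libraries). Over 4 libraries these numbers were 35 and 6 (38.6% and 38%).

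**Figure D1:**
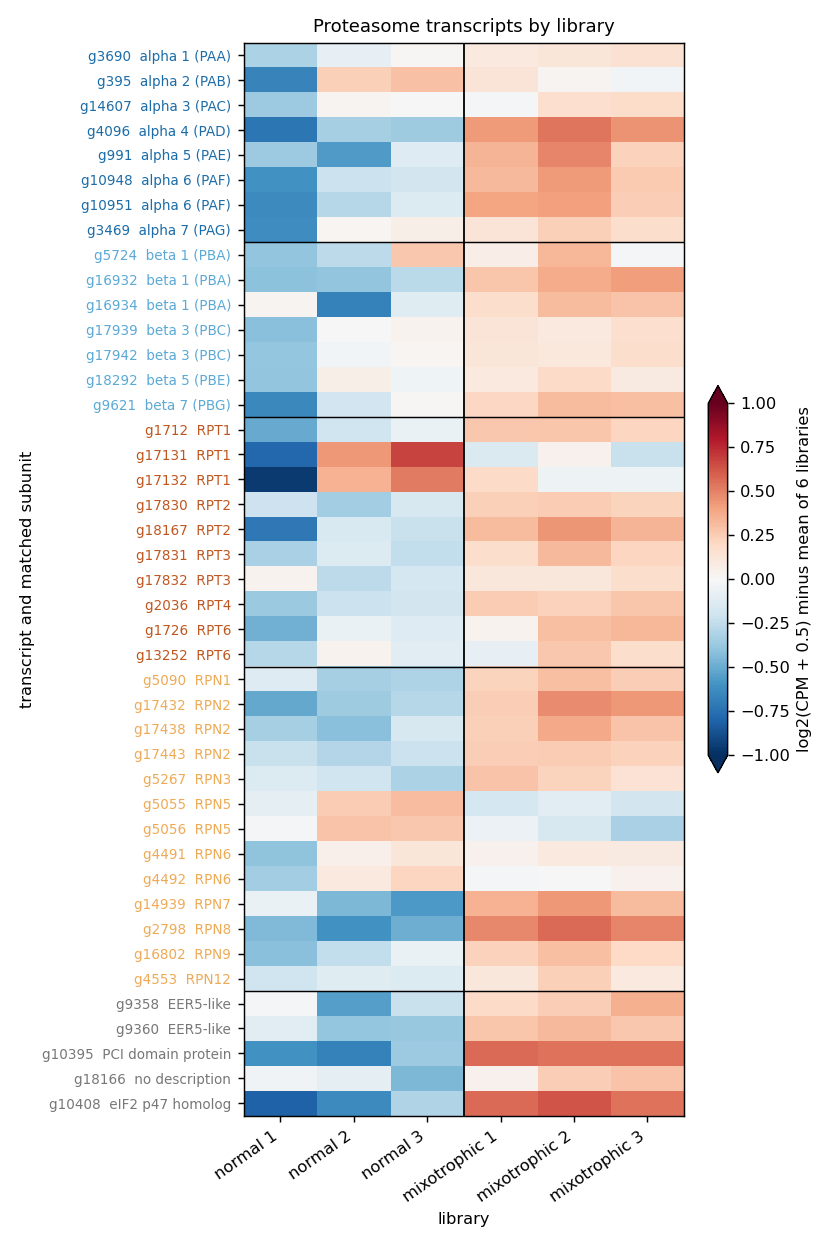
Level of each of the 43 tested members in each library, as log2 of CPM with 0.5 added minus that member's mean over 6 libraries (colour; red above the mean, blue below, values beyond 1 take the end colour). The 33 members that are higher in every mixotrophic library are redder to the right of the line than to the left, and normal 1 is the deepest blue for most core members and for 1 pair of RPT1 transcripts.

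Transcripts assembled from the same stretch of reads share a Trinity component, and the 43 members came from 34 components. Near-identical transcripts of a component may share or split reads, so they are not independent of each other, and 18 of the 43 were in 9 components with another tested member. The annotation gave 29 subunits, of which 25 had a tested transcript. When the counts of each subunit's transcripts were summed, a setting chosen after the data had been seen, 16 subunits were upregulated and 2 downregulated (alpha 2 and RPN5) over 4 libraries, and 12 and 0 over 6. No member matched RPT5, RPN10 or RPN13. The only transcripts of beta 2 (g5739, the trypsin-like site), beta 4 (g13291 and g13292), beta 6 (g4368) and RPN11 (g14884) had no count in any library, which allows a level of up to 0.141 CPM over 6 libraries for counting error alone. Of the 12 members without a count, 11 shared a component with another transcript, g14884 being the exception. Why these transcripts had no counts was not tested.

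Summed over all members outside the low group, the 3 with too few counts for a test included, proteasome transcripts stood at 3957, 4495 and 4715 CPM in the normal and 5817, 6095 and 5839 CPM in the mixotrophic libraries. The lowest mixotrophic library was above the highest normal one. The means were 4389 ± 390.3 and 5917 ± 154 CPM (SD, n = 3 each), a ratio of 1.35, or 1.30 from replicates 2 and 3 alone. These sums include members not assigned to the core or regulatory particle, which held 259, 239 and 262 CPM (normal) and 431, 450 and 445 CPM (mixotrophic). Normal 1 was the lowest library in each of the 4 classes, clearly so for the core and ATPase subunits and barely for the non-ATPase subunits, at 1843, 1846 and 1904 CPM.

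**Figure D2:**
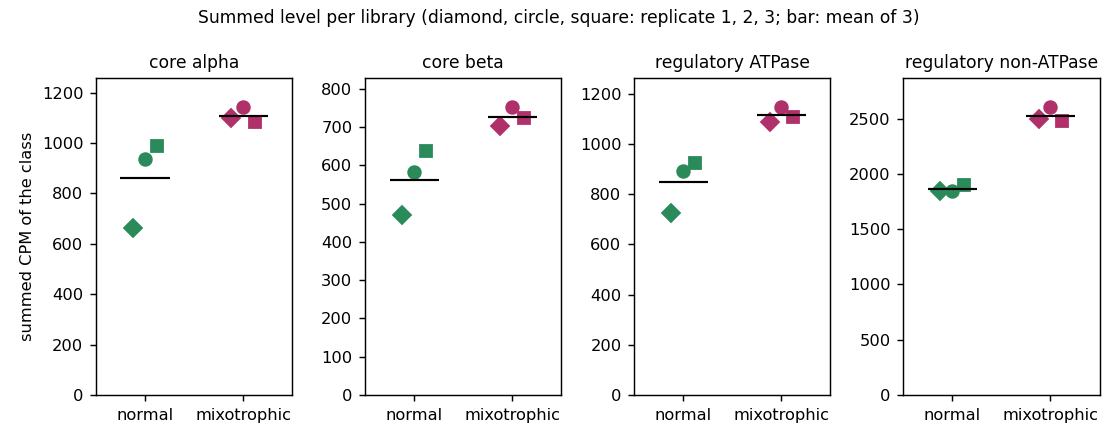
Summed CPM of the core alpha, core beta, regulatory ATPase and regulatory non-ATPase transcripts in each library (diamond, circle and square for replicates 1, 2 and 3, bar for the mean of 3). All mixotrophic libraries lie above all normal libraries in each panel, and the ratio of the means runs from 1.28 for core alpha to 1.36 for regulatory non-ATPase transcripts.

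Transcripts of both particles were upregulated more often than downregulated, and the difference between the particles was not tested. Of all transcripts tested, 28.6% were upregulated and 29% downregulated over 4 libraries, and 13.3% and 15.2% over 6. Over 4 libraries 7 of 15 core transcripts were upregulated and 1 downregulated, with a median log2 fold change of 0.17. For the regulatory particle the numbers were 17 and 4 of 23, with a median of 0.42. Over 6 libraries 5 of 15 and 13 of 23 were upregulated and 0 downregulated (0 and 1 lower at an unadjusted p under 0.05), with medians of 0.35 and 0.49. The replicate block left 4 and 5 of these calls.

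Of the alpha subunits, which form the gated outer ring, 4 of 8 transcripts rose and 1 fell over 4 libraries (median 0.36), and 4 rose over 6 (median 0.52). The shares of all transcripts were 28.6% up and 29% down over 4 libraries, and 13.3% up over 6. Alpha 4 (g4096) had 36.2, 47.8 and 46.9 CPM in the normal and 80.8, 87.2 and 82.5 CPM in the mixotrophic libraries. All mixotrophic levels were well above the normal ones, and normal 1 was the lowest. The log2 fold change was 0.84 ± 0.12 (SE; edgeR adjusted p = 3.20e-07) over 4 libraries and 0.95 ± 0.13 (adjusted p = 0.00540) over 6. Alpha 5 (g991) stood at 68.1, 59.0 and 80.0 CPM (normal) and 111, 123 and 103 CPM (mixotrophic). The groups did not overlap, and normal 2 was the lowest. Its log2 fold change was 0.69 ± 0.12 (edgeR adjusted p = 8.51e-06), and 0.72 ± 0.14 (adjusted p = 0.0154) over 6 libraries, with adjusted p = 0.0517 under the replicate block.

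Alpha 6 was represented by a pair of transcripts of one component that moved alike. One of them, g10948, had 51.2, 67.3 and 68.8 CPM under normal and 98.2, 105 and 94.2 CPM under mixotrophic conditions, without overlap. Its log2 fold change was 0.55 ± 0.11 (edgeR adjusted p = 4.51e-05) and 0.69 ± 0.14 (adjusted p = 0.0167) over 6 libraries. The other, g10951, gave 0.54 ± 0.10 (edgeR adjusted p = 4.78e-05) and 0.71 ± 0.15 (adjusted p = 0.0176).

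Alpha 2 (g395) was the exception in this ring. It stood at 147, 277 and 288 CPM in the normal and 258, 239.7 and 231 CPM in the mixotrophic libraries. Normal 1 was far below the others, while normal 2 and normal 3 were above every mixotrophic library, so the groups overlapped over 6 libraries. It was downregulated over 4 libraries, at -0.26 ± 0.067 (edgeR adjusted p = 0.00119), but stood at 0.050 ± 0.25 (adjusted p = 0.931) over 6. Alpha 1 (g3690), alpha 3 (g14607) and alpha 7 (g3469) were not called in either fit. Their log2 fold changes were 0.17, 0.16 and 0.17 over 4 libraries and 0.26, 0.23 and 0.35 over 6, with edgeR adjusted p of 0.0917, 0.0825 and 0.0514, and 0.133, 0.268 and 0.222.

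The beta subunits line the chamber where peptide bonds are cut. Of their 7 tested transcripts, 3 rose and 0 fell over 4 libraries (0 lower also by DESeq2, and at an unadjusted p under 0.05, which 30.6% of all transcripts passed upward and 30.9% downward), with a median of 0.14. The share that rose over 4 libraries was 42.9%, beside 28.6% of all transcripts. Over 6 libraries 1 of 7 rose (median 0.28), a share of 14.3% that is close to the 13.3% of all transcripts. Beta 1, the subunit with the caspase-like site, had 3 transcripts, all of which had positive fold changes. The transcript g16932 was at 29.7, 29.9 and 32.7 CPM in normal and 48.2, 51.3 and 53.1 CPM in mixotrophic libraries. The replicates of a condition were close to each other and the groups were far apart. Its log2 fold change was 0.73 ± 0.14 (edgeR adjusted p = 4.78e-05) and 0.74 ± 0.11 (adjusted p = 0.00555) over 6 libraries, the only beta transcript called there.

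Its partner in the same component, g16934, had 39.5, 24.1 and 35.8 CPM (normal) and 43.9, 48.4 and 47.5 CPM (mixotrophic). The groups did not overlap, but normal 1 was the highest of the normal libraries and normal 2 the lowest. The log2 fold change was 0.66 ± 0.16 (edgeR adjusted p = 0.000574) over 4 libraries and 0.50 ± 0.20 (adjusted p = 0.113) over 6. The third beta 1 transcript, g5724, comes from another component and overlapped between conditions, with 50.9, 55.7 and 80.6 CPM in normal and 70.3, 84.3 and 66.5 CPM in mixotrophic libraries. It stood at 0.14 ± 0.13 (edgeR adjusted p = 0.401).

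Beta 7 (g9621), a subunit without a proteolytic site, had 114, 156 and 179.8 CPM in normal and 206, 222 and 219 CPM in mixotrophic libraries. Every mixotrophic level was higher, and normal 1 was the lowest. It rose by 0.39 ± 0.075 (log2, edgeR adjusted p = 5.08e-05) over 4 libraries, and stood at 0.54 ± 0.17 (adjusted p = 0.0595) over 6. Beta 5 (g18292), which carries the chymotrypsin-like site, was at 134, 182 and 170.4 CPM (normal) and 187, 201 and 186 CPM (mixotrophic). Its groups were next to each other without overlap, and the change of 0.14 ± 0.078 was not called (edgeR adjusted p = 0.135, and 0.220 over 6 libraries). The pair of beta 3 transcripts, another subunit without a site, gave 0.11 and 0.14 over 4 libraries and 0.26 and 0.28 over 6, and was not called in either fit.

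**Figure D3:**
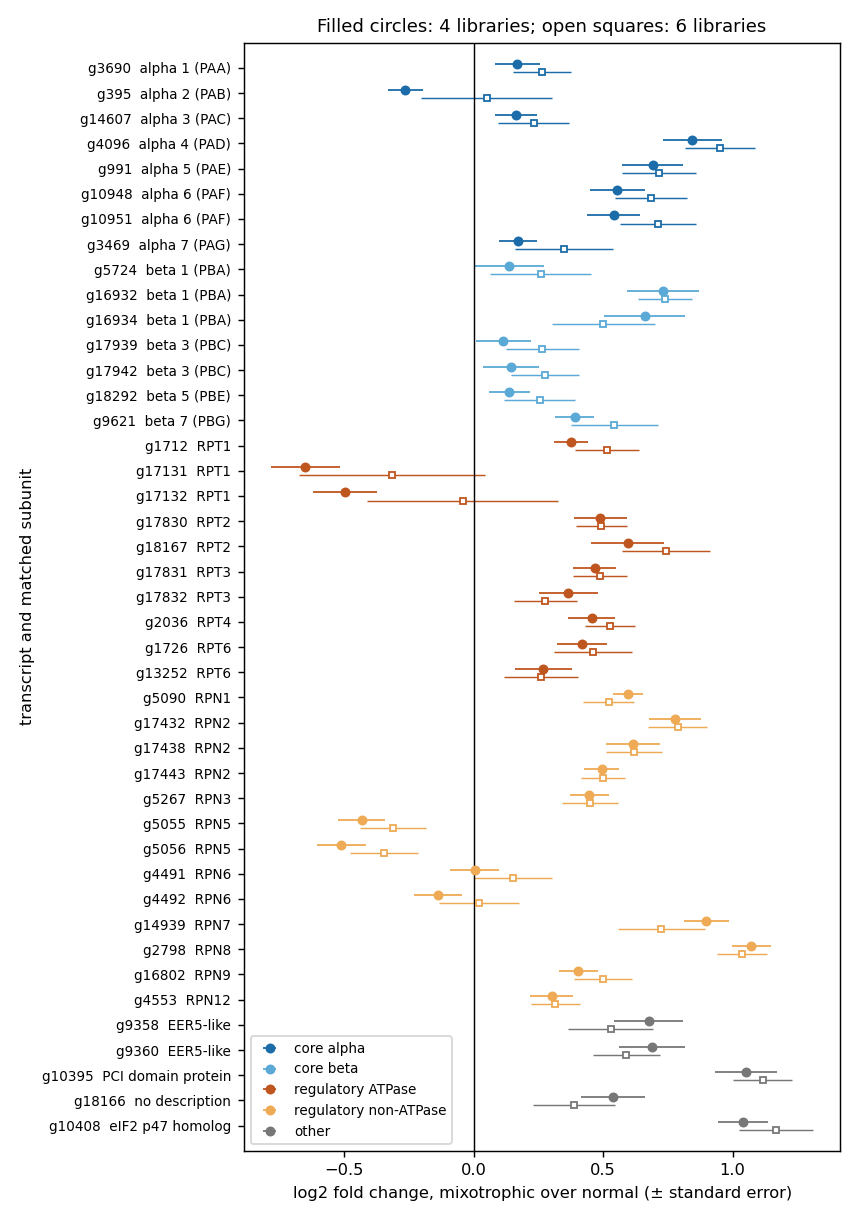
Log2 fold change of mixotrophic over normal libraries for the 43 tested members, with its standard error (bars), over 4 libraries (filled circles) and over 6 (open squares), coloured by class. Most points lie to the right of 0. The RPN5 pair and 1 pair of RPT1 transcripts lie to the left, and alpha 2 and the RPN6 transcript g4492 lie left over 4 libraries and right over 6.

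All regulatory ATPases that were tested were called in one direction or the other over 4 libraries, 8 up and 2 down of 10 transcripts (median 0.40). Over 6 libraries 5 rose and 0 fell (0 lower also at an unadjusted p under 0.05), with a median of 0.47. The shares of all transcripts were 28.6% up and 29% down over 4 libraries, and 13.3% and 15.2% over 6. RPT2, whose tail helps to open the core in yeast, had 2 transcripts outside the low group, from different components. The transcript g18167 had 22.9, 34.1 and 32.4 CPM in normal and 47.5, 51.8 and 48.1 CPM in mixotrophic libraries. The groups did not overlap. Its log2 fold change was 0.59 ± 0.14 (edgeR adjusted p = 0.000656) and 0.74 ± 0.17 (adjusted p = 0.0243) over 6 libraries. The other, g17830, gave 0.49 ± 0.10 (edgeR adjusted p = 0.000151) and 0.49 ± 0.099 (adjusted p = 0.0161, or 0.0732 under the block).

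RPT1 transcripts went both ways. The more highly counted one, g1712, had 193, 238 and 262 CPM in normal and 330.5, 332 and 318 CPM in mixotrophic libraries. It was higher in every mixotrophic library, with a log2 fold change of 0.38 ± 0.066 (edgeR adjusted p = 1.66e-05) and 0.52 ± 0.12 (adjusted p = 0.0282, or 0.0738 under the block). The other RPT1 transcripts, g17131 and g17132, share a component. The former stood at 24.8, 58.6 and 69.2 CPM (normal) and 39.0, 44.5 and 36.9 CPM (mixotrophic), and the latter at 24.0, 60.2 and 67.8 CPM (normal) and 53.9, 45.4 and 45.6 CPM (mixotrophic). In both, normal 1 was the lowest of all libraries while normal 2 and normal 3 were the highest. They were downregulated over 4 libraries, by log2 fold changes of -0.65 ± 0.13 (edgeR adjusted p = 0.000120) and -0.50 ± 0.12 (adjusted p = 0.000935). Over 6 libraries they were not called, at -0.32 ± 0.36 (edgeR adjusted p = 0.578) and -0.043 ± 0.37 (adjusted p = 0.962). The difference between the 2 sources of RPT1 transcripts was not tested, and with all 3 transcripts summed RPT1 changed by 0.12 ± 0.062 over 4 libraries and was not called (edgeR adjusted p = 0.101).

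RPT3, RPT4 and RPT6 transcripts all rose over 4 libraries. RPT3 was represented by g17831 and g17832, at 0.47 ± 0.083 and 0.36 ± 0.11, and RPT4 by g2036, at 0.46 ± 0.091. The RPT6 transcripts g1726 and g13252 stood at 0.42 ± 0.095 and 0.27 ± 0.11. The last had the smallest change among the ATPases called, with an edgeR adjusted p of 0.0378 that became 0.0621 with the replicate block. Over 6 libraries g17831 and g2036 were called (edgeR adjusted p = 0.0196 and 0.0124, and 0.0679 and 0.0620 under the block), and g17832, g1726 and g13252 were not (adjusted p = 0.147, 0.0676 and 0.226).

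Non-ATPase subunits included the largest change among the core and regulatory particle transcripts. Over 4 libraries 9 of 13 transcripts rose and 2 fell (median 0.45), beside 28.6% and 29% of all transcripts. Over 6 libraries 8 rose and 0 fell (1 lower at an unadjusted p under 0.05, median 0.50), beside 13.3% and 15.2% of all transcripts. RPN8 (g2798), the lid subunit that pairs with RPN11, had 139, 125 and 135 CPM in normal and 265, 281 and 266 CPM in mixotrophic libraries. The levels about doubled, with little spread within either condition. The log2 fold change was 1.07 ± 0.076 (edgeR adjusted p = 5.41e-13) and 1.04 ± 0.097 (adjusted p = 0.00179) over 6 libraries. RPN7 (g14939), a lid subunit of the PCI type, stood at 138, 106 and 96.5 CPM (normal) and 183, 195 and 179.7 CPM (mixotrophic). Here normal 1 was the highest of the normal libraries, though still below the mixotrophic ones. RPN7 rose by 0.90 ± 0.087 (edgeR adjusted p = 4.77e-10) and 0.72 ± 0.17 (adjusted p = 0.0249) over 6 libraries.

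The large base subunits rose as well. RPN2 had 3 tested transcripts, of which g17432 stood at 56.7, 63.1 and 66.1 CPM in normal and 95.9, 112 and 109.6 CPM in mixotrophic libraries. There was no overlap, and the log2 fold change was 0.78 ± 0.10 (edgeR adjusted p = 1.10e-07) and 0.79 ± 0.11 (adjusted p = 0.00562) over 6 libraries. The RPN2 transcripts g17438 and g17443 rose by 0.61 ± 0.10 and 0.49 ± 0.067 and were also called over 6 libraries (edgeR adjusted p = 0.0101 and 0.00962), g17443 at adjusted p = 0.0601 under the block. RPN1 (g5090), a docking site for ubiquitin receptors, was at 439, 380.1 and 388 CPM (normal) and 558, 589.5 and 570.2 CPM (mixotrophic). All mixotrophic levels were higher by a wide margin, and it rose by 0.59 ± 0.058 (edgeR adjusted p = 4.58e-10) and 0.52 ± 0.099 (adjusted p = 0.0135, or 0.0561 under the block).

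Among the other lid subunits, RPN3 (g5267), RPN9 (g16802) and RPN12 (g4553) rose over 4 libraries, by 0.45 ± 0.077, 0.40 ± 0.077 and 0.30 ± 0.082. Over 6 libraries RPN3 and RPN9 were called (edgeR adjusted p = 0.0288 and 0.0230, and 0.0790 and 0.0744 under the block), and RPN12 was not (adjusted p = 0.0552).

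RPN5, a lid subunit of the PCI type, went the other way. Its transcripts g5055 and g5056 share a component. The first had 93.5, 119 and 123 CPM in normal and 88.2, 92.1 and 87.5 CPM in mixotrophic libraries, the second 98.1, 120.5 and 119 CPM (normal) and 95.2, 88.7 and 79.1 CPM (mixotrophic). Every mixotrophic level was below every normal one in both, with normal 1 the closest to the mixotrophic libraries, and no other tested member had this order over 6 libraries. Over 4 libraries they fell, with log2 fold changes of -0.43 ± 0.091 (edgeR adjusted p = 0.000168) and -0.51 ± 0.096 (adjusted p = 3.93e-05). Over 6 libraries the changes of -0.31 ± 0.13 (edgeR adjusted p = 0.124) and -0.35 ± 0.13 (adjusted p = 0.0997) were not called. RPN6, which bridges lid and core in yeast, had transcripts g4491 and g4492 of one component. The latter stood at 71.4, 97.2 and 106 CPM (normal) and 90.1, 91.1 and 93.6 CPM (mixotrophic). Normal 1 was the lowest library, and normal 2 and normal 3 were above every mixotrophic one, as for alpha 2. The log2 fold changes of g4491 and g4492 were 0.0036 ± 0.095 and -0.14 ± 0.094 over 4 libraries, and 0.15 ± 0.15 and 0.021 ± 0.15 over 6. The sign of g4492 thus differed between the fits, and neither transcript was called in either (edgeR adjusted p = 0.977 and 0.215, and 0.516 and 0.955 over 6 libraries).

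The category also held 11 transcripts that were not assigned to these classes, 2 of them because they had no description. Of the 11, 5 were tested, and all 5 rose over 4 libraries (median 0.69), beside 28.6% of all transcripts. A homolog of a translation initiation factor subunit (g10408) had 60.5, 68.1 and 86.4 CPM in normal and 158, 165 and 155 CPM in mixotrophic libraries. Mixotrophic levels were close together and far above the normal ones. It rose by 1.04 ± 0.096 (edgeR adjusted p = 1.65e-10) and 1.17 ± 0.14 (adjusted p = 0.00361) over 6 libraries. A PCI domain protein (g10395) stood at 38.4, 36.6 and 45.5 CPM (normal) and 87.2, 85.7 and 85.8 CPM (mixotrophic). It showed the same separation, at 1.05 ± 0.12 (edgeR adjusted p = 1.34e-08) and 1.12 ± 0.11 (adjusted p = 0.00223). PCI domains also occur in translation factors, and neither transcript was annotated as a named proteasome subunit. Transcripts like EER5, an *Arabidopsis* protein of ethylene responses, numbered 6 in one component, of which g9358 and g9360 were tested. They rose by 0.68 ± 0.13 and 0.69 ± 0.13, g9360 also over 6 libraries (edgeR adjusted p = 0.0213, or 0.0603 under the block). One tested transcript, g18166, had no description in the copy of the table used here and rose by 0.54 ± 0.12 over 4 libraries. It shares a component with the RPT2 transcript g18167, so it may not lie outside the particles.

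The 6 members low in replicate 1 were chosen by that pattern, so their levels are given as a description with no test. They comprised 3 transcripts of alpha 3 from one component, 1 of RPT2 and 2 of RPN7, and each of these subunits also had a transcript outside the low group. The alpha 3 transcript g12264 had 0.281, 15.0 and 8.20 CPM in normal and 0.225, 10.0 and 13.6 CPM in mixotrophic libraries, here relative to the unscaled library total. In the same component, g12262 had 1.12, 13.0 and 7.57 CPM (normal) and 0.900, 7.27 and 12.5 CPM (mixotrophic), and g12263 had 0, 3.55 and 2.84 CPM (normal) and 0.225, 3.01 and 6.80 CPM (mixotrophic). RPT2 (g14500) stood at 0.562, 10.6 and 9.77 CPM (normal) and 0.450, 9.28 and 7.94 CPM (mixotrophic). In these 4 transcripts the highest replicate 1 level was 1.12 CPM, and the other libraries of the conditions overlapped, except that for g14500 both mixotrophic levels lay below the normal ones. The RPN7 transcripts g15400 and g15402 held 21 and 19 counts over all libraries, with 0 in both replicate 1 libraries. The former had 0, 2.37 and 0.630 CPM (normal) and 0, 0.752 and 2.83 CPM (mixotrophic), and the latter 0, 1.18 and 2.21 CPM (normal) and 0, 0.502 and 1.98 CPM (mixotrophic), with overlap between conditions in both.

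At the 2-fold threshold, the members just inside were g15402 and g15400, whose lowest other library was 2.00-fold and 2.26-fold above the higher replicate 1 library (CPM with 0.5 added), and the next was g12263 at 4.60-fold. Just outside were the RPN7 transcript g15403 of the same component, with 4 counts in all and a ratio of 1.00, and RPN6 (g4492), the highest of the tested members, at 0.970. Together the 6 transcripts held 1.91, 48.2 and 33.4 CPM in the normal and 1.70, 30.2 and 45.0 CPM in the mixotrophic libraries. That is 0.0482% and 0.0293% of all proteasome CPM in normal 1 and mixotrophic 1 and 0.493% to 1.06% elsewhere.

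Annotation scores, which the rule did not use, differed between these transcripts and the rest. All 6 had a higher match score to *Arabidopsis* than to *Chlamydomonas*, with ratios from 1.27 to 1.34. Of the 41 tested members outside the group with both scores, 8 had the higher *Arabidopsis* score, and the median ratio was 0.962 (range 0.789 to 1.76). Over the whole table, 98.8% of 341 transcripts low in replicate 1 and 37.7% of 6937 others had the higher *Arabidopsis* score. Where these transcripts came from was not tested.

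**Figure D4:**
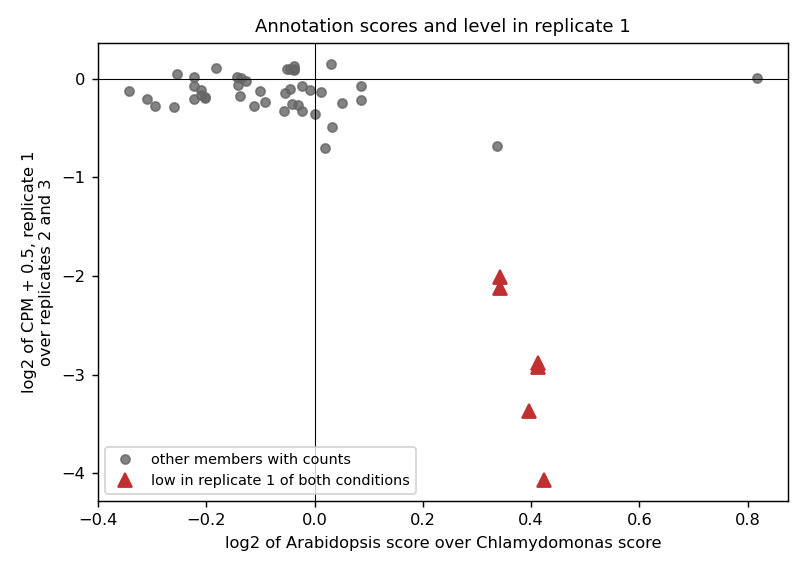
Log2 ratio of the *Arabidopsis* to the *Chlamydomonas* match score (horizontal) against the log2 ratio of CPM, with 0.5 added, in the replicate 1 libraries to that in replicates 2 and 3 (vertical) for members with counts and both scores. The 6 members low in replicate 1 (triangles) lie at score ratios above 0 on the log2 scale and well below the other members, and 1 other member (g17443, RPN2) has a higher score ratio of 1.76 without a low level in replicate 1.

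Normal 1 also differed from normal 2 and normal 3 among the 43 tested members outside the low group. Its level was below the mean of the other normal libraries in 32 of 43 (5421 of 11574 over all transcripts compared), and below each of them in 29. The median log2 ratio of normal 1 to that mean was -0.28, where over all 11574 transcripts compared it was 0.058 with quartiles of -0.45 and 0.50. The core particle had a median of -0.40 with 14 of 15 below 0, and the regulatory particle -0.19 with 16 of 23. For mixotrophic 1 the median over members was -0.040, and normal 3 over normal 2 gave a median of 0.066, both nearer to 0 than that of normal 1. The number of members below was not particular to normal 1. Mixotrophic 1 was below the mean of mixotrophic 2 and 3 in 33 of 43 members (5694 of 11574 transcripts). Mixotrophic 3 was below mixotrophic 2 in 30 (6150), and normal 3 below normal 2 in 12 (4410). The fold change of 14 of 15 core transcripts was larger over 6 libraries than over 4. Without normal 1, 7 core and 16 regulatory particle transcripts were called higher.

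Calls in the rest of the ubiquitin system, given first over 4 libraries and without the transcripts low in replicate 1, went in both directions. Of all 11574 transcripts tested outside that low group, 30.6% were higher and 30.8% lower. Ubiquitin-activating enzymes (E1) had 2 tested transcripts, both called higher: the RUB-activating ECR1 homolog g6350 at 0.68 ± 0.11 (edgeR adjusted p = 2.46e-06) and the E1 g16172 at 0.13 ± 0.055 (adjusted p = 0.0424). Ubiquitin-conjugating enzymes (E2) were split, with 5 higher and 5 lower of 16 and a median of 0.10. The E2 transcripts g4538 and g4536, like the DNA-damage enzyme UBC36, rose by 0.72 and 0.63, and g939 and g1859 fell by 1.00 and 0.54 on the log2 scale. Ubiquitin ligases (E3), which choose the substrates, were mostly lower where called, with 8 higher and 33 lower of 73 and a median of -0.30. An F-box transcript (g6545) had a log2 fold change of -1.56 ± 0.077 (edgeR adjusted p = 1.51e-16) and a HECT ligase (g11639) one of -1.45 ± 0.084 (adjusted p = 5.04e-15), whereas a BTB-MATH transcript (g15962) rose by 1.12 ± 0.065 (adjusted p = 5.02e-15) and an ARM repeat transcript (g6358) by 0.53 ± 0.060 (adjusted p = 7.98e-09). With the low group included, the E3 counts were 8 and 33 of 81.

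Ubiquitin proteases, which remove or trim ubiquitin, had 3 higher and 7 lower of 15 (median -0.32). Of these, g7714 and g7718 of one annotation changed by -1.17 and -1.07, and g2910 and g1588 by 0.37 and 0.29. The category counts g1588 here, although its *Arabidopsis* match is AGD9, an ARF-GAP domain protein and not a ubiquitin protease. Transcripts of ubiquitin itself and its relatives had 0 higher (0 also at an unadjusted p under 0.05) and 2 lower of 4 (median -0.42), g5389 at -0.97 and g5390 at -0.86. With the low group, which held 4 of the 11 listed, 2 of 7 were lower and the median was 0.014. Of 2 transcripts annotated as polyubiquitin, 1 was lower (g4091, -0.13), or 1 of 3 with the low group. The keyword took in g4091 through its match to UBQ6, described as a structural constituent of the ribosome. Its category is that of cytosolic ribosomal proteins, so it also counts in that list. The COP9 signalosome, a complex built like the lid, had 3 higher and 1 lower of 7 (median 0.46), among them g7458 at 0.51, g7456 at 0.46 and the JAB1-like g4453 at -0.47. The keyword CDC48, an unfoldase that hands substrates to the proteasome, took in 19 tested AAA ATPases of several kinds, with 3 higher and 1 lower (median 0.025). These included an AAA ATPase (g3708) at 0.45, the NSF homolog g7109 at 0.57 and the SKD1 homolog g17763 at -0.25.

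For comparison outside the ubiquitin system, autophagy transcripts had 0 higher (0 at an unadjusted p under 0.05) and 6 lower of 15 (median -0.34), led by a pair of ATG5 transcripts, g3081 at -1.23 and g3076 at -0.96. Cytosolic ribosomal proteins had 9 higher and 27 lower of 69 (median -0.087). With the low group, which held 29 of the 103 listed, 10 were higher and 28 lower of 98 (median -0.10). Their named members were g9843 at 1.76, g9210 at 1.06, g11307 (P0) at -0.69 and g14888 (L3) at -0.33. Over 6 libraries, where 13.3% of all transcripts tested were higher and 15.2% lower, E1 had 0 calls either way, E2 had 1 higher and 1 lower of 16, E3 3 and 18 of 73, ubiquitin proteases 1 and 5 of 15, COP9 2 and 0 of 7, CDC48 2 and 0 of 19, autophagy 0 and 2 of 15, and ribosomal proteins 4 and 13 of 69. Ubiquitin and polyubiquitin had 0 calls there. At an unadjusted p under 0.05 over 6 libraries, passed by 19.3% of all transcripts upward and 21.7% downward, E1 had 1 higher and 0 lower, ubiquitin 0 and 2, polyubiquitin 1 and 0, COP9 3 and 0, CDC48 3 and 1, and autophagy 0 and 6. The differences between these lists and the proteasome were not tested.

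**Figure D5:**
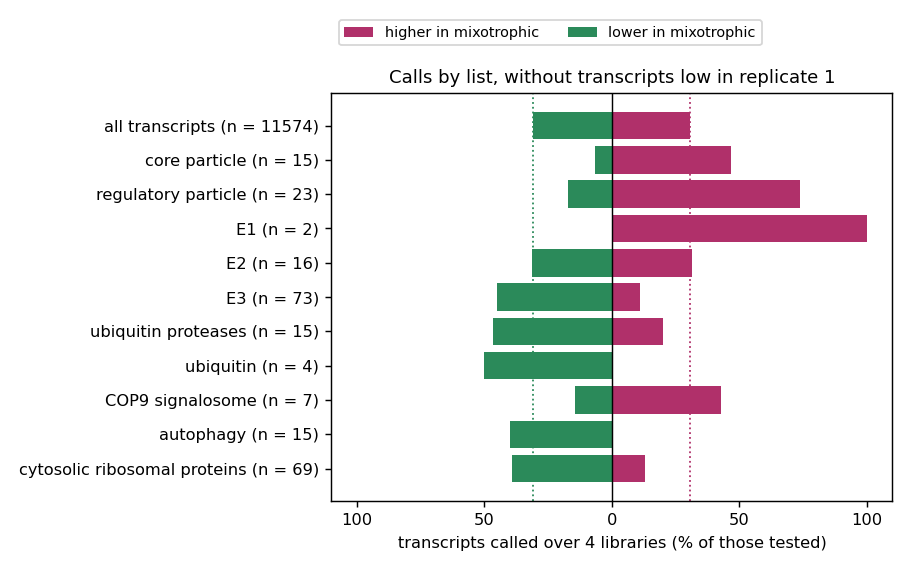
Share of tested transcripts called higher (right) or lower (left) in mixotrophic libraries over 4 libraries, for all transcripts, the core and regulatory particle and 8 other lists, each without the transcripts low in replicate 1, with the number tested in brackets and dotted lines at the shares for all transcripts, 30.6% and 30.8%. Both proteasome particles lie beyond the line on the right and short of it on the left. So do E1 (2 tested) and the COP9 signalosome (7 tested, 42.9% higher and 14.3% lower). E3 ligases, ubiquitin proteases, ubiquitin, autophagy and ribosomal proteins do the reverse, and E2 enzymes lie at 31.2% on both sides.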

How the data were processed

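Reads of all samples were pooled by the authors for one Trinity assembly, and protein-coding transcripts were taken from AUGUSTUS. Counts are the authors' own: Subread alignments to these transcripts, summarised by featureCounts without changed settings. The deposited series also names BWA and DESeq2. The deposited table holds whole-number counts for 6 libraries, unscaled, with the MapMan category that Mercator gave. The library kit keeps strand, but whether counting used it is not given in the sources used here. Other deposited tables hold the authors' DESeq2 fold changes and p-values, category enrichment tests and contig names, and were not used. Descriptions of 711 transcripts were removed beforehand, 2 of them of members, so subunit and keyword lists may miss transcripts.

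The test was the two-sided quasi-likelihood test of edgeR 4.0.16 in R 4.3.3, after TMM scaling and filterByExpr with a minimum count of 10, with Benjamini-Hochberg adjustment over all transcripts tested and a call at an adjusted p under 0.05. Standard errors were obtained as the fold change on the log2 scale over the root of F. Levels are counts scaled to one common library total (CPM), TMM-scaled except where stated. They cannot be compared between transcripts, as lengths were not used. Totals of 2535461 to 4444858 counts per library limit precision, and limits for a count of 0 cover counting error only.

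The members, lists and rules were chosen with earlier results of these data known. Full values are given for the 3 called members of each class with the largest change over 4 libraries, those called lower, those whose sign turned between fits, and those low in replicate 1. Other named lists give up to 2 higher and 2 lower transcripts with the smallest p. RPN1, beta 5, beta 1 g5724, RPT1 g1712, g10408 and g10395 were given in full after their values were seen.

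Same-numbered libraries deviated together over all tested transcripts, with correlations of 0.703, 0.625 and 0.544, so the replicate number was tried as a block. Normal 2 with mixotrophic 3 (0.683) and normal 3 with mixotrophic 2 (0.514) were alike too, so the correlations do not match replicates 2 and 3 by number. Replicate 1 against replicates 2 and 3 gave -0.717 to -0.579. Deviations were taken from the mean of each condition's 3 libraries and sum to 0, which by itself pushes these values below 0 when the replicate 1 libraries deviate together. Outside the group low in replicate 1 the same-numbered values were 0.123, 0.0509 and 0.0345, and normal 2 with mixotrophic 3 gave 0.112. The labels do not say what the number marks. Other settings tried were upper quartile and RLE scaling, DESeq2 1.42.0, other filters and thresholds of the low group (1.5-fold and 4-fold), counts summed per Trinity component and leaving out each library. The scripts were tested on simulated data.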

Additional observations from a re-analysis of the deposited data

How the results depend on the processing

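Counts of calls over 4 libraries were within 1.5 times of the reported ones under most alternatives. Exceptions were upper quartile scaling, with 11 core particle transcripts higher (33 members in all), and a fold threshold, a log2 change of 1 or more in size, which left 3 members higher, 0 lower, 0 core and 1 regulatory particle transcripts higher. Sums per Trinity component take in every transcript of a component, also those that are not members or are low in replicate 1. They moved the regulatory particle units called lower to 2 of 20, because the 4 transcripts called lower form 2 pairs, each from 1 component. Leaving out each library gave 27 to 31 higher, 5 lower throughout, 7 to 9 core and 15 to 17 regulatory transcripts. These fits leave 1 library in a condition, which is taken to vary like the others. Over 6 libraries that fold threshold also left 3 members, 0 core and 1 regulatory transcripts higher. The replicate block left 11 members and 5 regulatory transcripts, and over 4 libraries it changed 1 call. Sums per component gave 1 unit lower of 39, with 0 in the core and 0 in the regulatory particle. All 5 tested members not assigned to a particle had positive fold changes, so this call came from transcripts that are not tested members. Leaving out 1 library gave 6 to 28 members higher, 0 to 5 lower, 2 to 7 core and 2 to 16 regulatory transcripts. The lowest of these came without any 1 mixotrophic library, and the highest and the 5 lower came without normal 1. Without normal 2, 8 regulatory transcripts were called. DESeq2 gave 26 higher over 4 libraries and 24 over 6. Over all transcripts DESeq2 called 2480 higher and 2598 lower where edgeR called 3549 and 3593 over 4 libraries. Scaling moved the median of all transcripts from -0.019 to 0.041 at most over 4 libraries. The causes of these differences were not tested.

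Some log2 fold changes near 0 changed sign. Over 4 libraries RPN6 g4491 was -0.12 with sums per component and -0.032 to 0.029 without 1 library, and beta 1 g5724 was -0.090 to 0.43 without 1 library. Over 6 libraries RPT1 g17132 was 0.057 with the replicate block and -0.41 to 0.21 without 1 library, alpha 2 g395 was -0.27 with sums per component and -0.23 to 0.20 without 1 library, and RPN6 g4491 and g4492 ran from -0.019 to 0.23 and from -0.15 to 0.12. Of these, g395 without normal 1 passed the threshold (edgeR adjusted p = 0.0175). Tested members had 58 to 2400 counts in a library of the first fit, a counting error of 2.04% to 13.1%, and for 31 of 43 members its mean exceeded the common coefficient of variation of 4.64%, so depth limits that fit. Over 6 libraries it exceeded the 35.5% for 0 of 43.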
